A study of Mus musculus with 4 samples.

Results

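The 72 genes described here encode the initiation factors (eIF1 to eIF6) and elongation factors (eEF1 and eEF2) of cytosolic translation, with kinases, binding proteins and methyltransferases that carry the same names. They were chosen by symbol alone, as rows of a 55401-gene count table that begin with Eif1 to Eif6, Eef1 or Eef2, leaving out 13 rows with the symbol of a pseudogene or an opposite-strand transcript. The rule itself uses no measured value. The assay was 4sU-seq, which captures RNA made while the uridine analogue 4-thiouridine was present, and the cells were 129/Ola embryonic stem cells of the mouse. Their SNRNP70, a protein of the spliceosomal U1 snRNP that helps recognise the start of introns, carried an auxin-inducible degron (SNRNP70AID). The 2 control libraries came from cells with 0 h of the auxin IAA and are labelled WT although their titles name the SNRNP70AID line, and the other 2 came from cells given IAA for 5 h. All groups therefore share the degron line by their titles, the number of clones is not stated, and how long 4sU was present, or whether foreign RNA was added as a standard, is not known here.

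Translation starts when eIF2 brings the initiator tRNA to the small ribosomal subunit, helped by eIF1, eIF1A, eIF3 and eIF5. The eIF4F complex recruits that subunit to the mRNA cap, and eIF5B joins the large subunit. eEF1A then delivers each aminoacyl-tRNA, with the eEF1B subunits recharging it with GTP, and eEF2 moves the ribosome along. Cells adjust the rate through kinases that phosphorylate eIF2, through eIF4E-binding proteins that block the cap-binding protein, and through eEF2 kinase.

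After 5 h of auxin, labelled RNA of more of these genes was higher than lower. Of the 72 genes, 65 passed the count filter, of which 36 rose, 7 fell and 22 did not pass the test (edgeR's quasi-likelihood test, Benjamini-Hochberg adjusted p under 0.05 over 17344 tested genes). Among all tested genes 43.2% passed the test, as 22.0% rose and 21.2% fell, against 55.4% and 10.8% of the tested members. The median log2 fold change of the tested members was 0.39, against -0.02 for all tested genes. Both 5 h libraries lay above both 0 h libraries in 41 members and below them in 13 (36.0% and 37.5% of all tested genes), and 11 members overlapped. The 7 that fell were Eif4ebp2, Eef1e1, Eif2d, Eif2ak2, Eif2ak4, Eef2kmt and Eef1akmt1. All changes are relative to the other RNAs of a library, and the direction of most members depended on the scale. With library totals 26 rose and 16 fell (backgrounds 13.2% and 30.3%), and with the mitochondrially encoded RNAs as the scale 1 rose and 30 fell (backgrounds 2.28% and 51.2%). The median of all tested genes was then -0.28 and -0.86, and that of the members 0.12 and -0.46, above the median gene each time. Mitochondrially encoded RNAs made up 4.41% and 4.34% of counts at 0 h and 6.03% and 7.17% at 5 h. Whether the members fell or this reference rose was not tested.

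**Figure D1:**
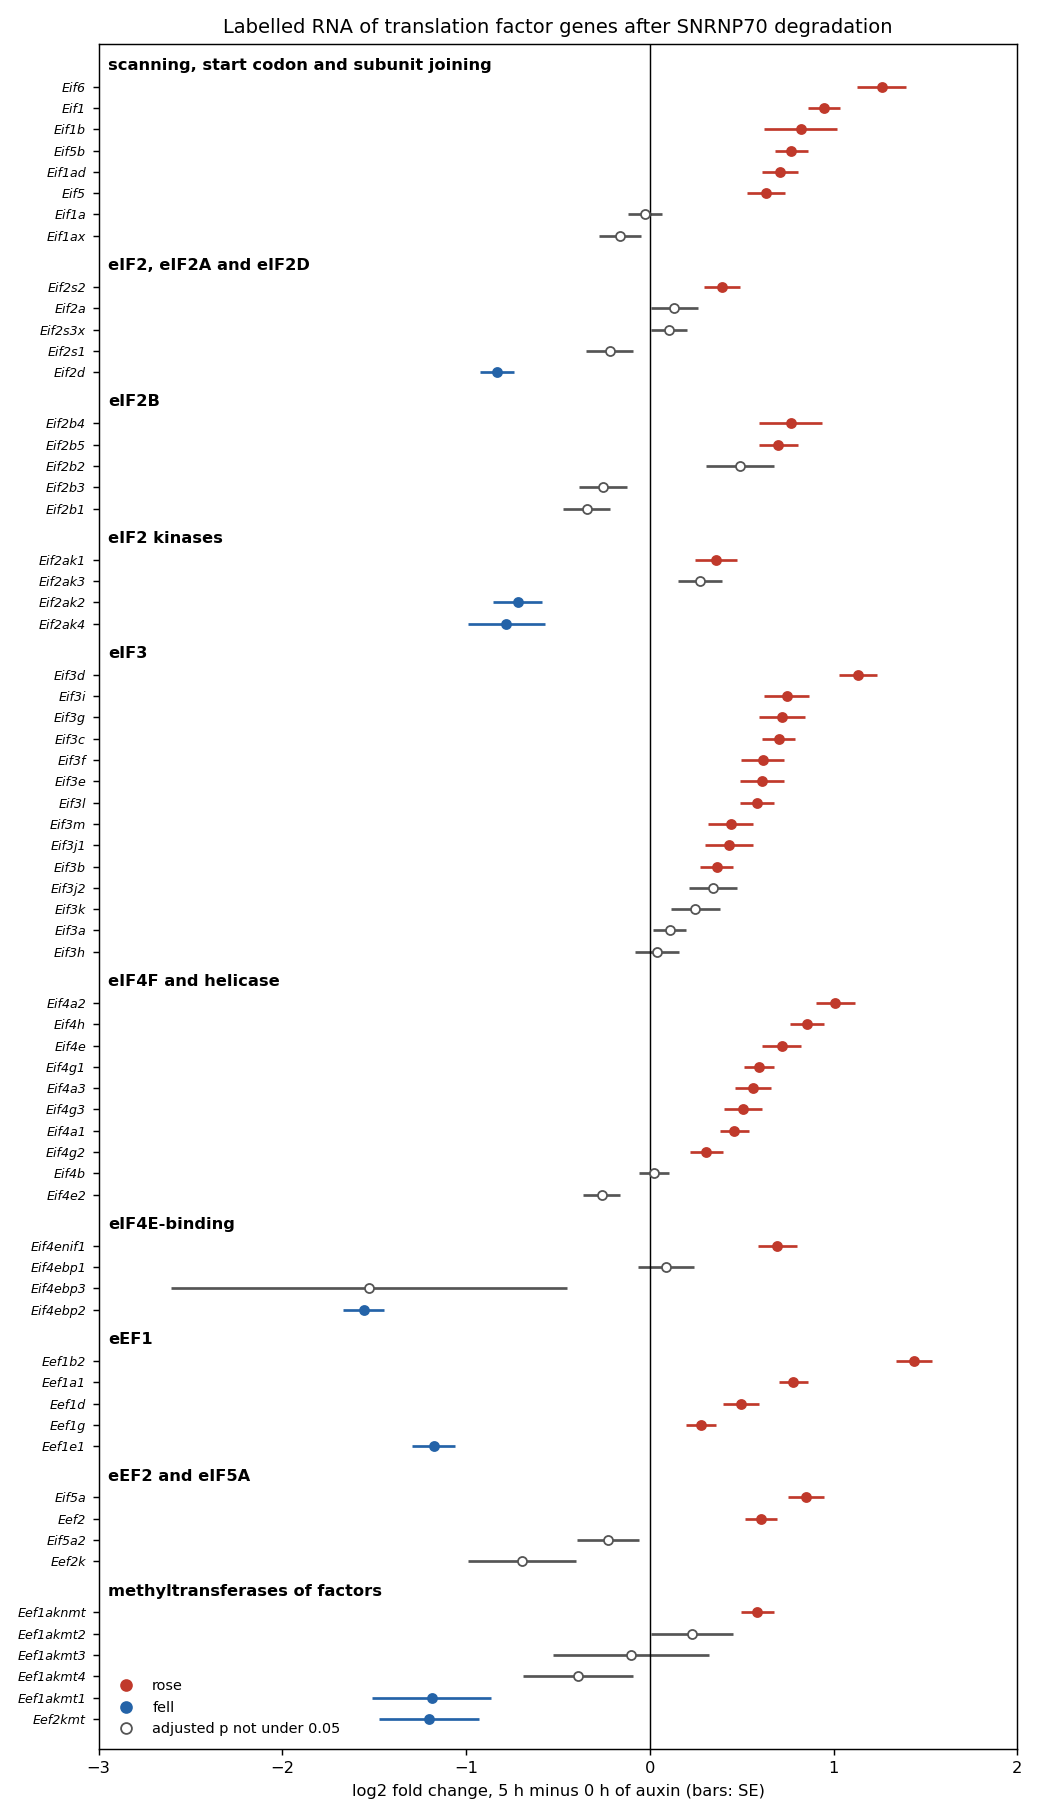
Log2 fold change (5 h minus 0 h of auxin, TMM scale) of the 65 tested translation factor genes, grouped by complex, with bars of 1 SE; filled red points rose, filled blue points fell and open points did not pass. All 14 eIF3 genes lie above 0, the lowest at 0.04, while the 7 blue points lie in 5 of the 10 groups, outside eIF3, eIF4F, eIF2B, the scanning factors and the group of eEF2 and eIF5A.

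Libraries held 7174772 to 17752887 counts, and Pearson's r across genes between replicates was 0.969 at 0 h and 0.965 at 5 h. The series text calls the replicates independent without naming separate cultures, so p-values measure the spread between these libraries, which may be technical. All 10 embryonic stem cell markers were detected, and their summed level was 3368 to 3556 CPM at 0 h and 3991 to 4021 CPM at 5 h. Of these, 5 rose (Sox2, Klf4, Utf1, Fgf4 and Pou5f1) and 2 fell (Nanog by 0.27 and Tdgf1 by 0.64 on the log2 scale). Sums on the TMM scale were higher at 5 h over all tested genes too. They were 911138 to 911645 CPM at 0 h and 1078290 to 1116490 CPM at 5 h. Of 5 feeder fibroblast markers, Postn and Col3a1 were at 0 counts in every library and the sum over the 2 that were tested was 9.16 to 9.93 CPM at 0 h and 12.2 to 12.8 CPM at 5 h. Tested markers of primitive endoderm, mesoderm and neuroectoderm each summed to at most 17.5 CPM. In the last list Sox1 rose and Pax6 did not pass (log2 -0.11 ± 0.33). Tfap2c, a trophoblast gene, rose from 89.9 and 86.1 CPM to 142 and 159 CPM, while Cdx2 was at 0 counts. Krt8, the other tested trophoblast marker, had 47 and 21 counts at 0 h and 37 and 0 counts at 5 h. It did not pass (log2 -0.88 ± 1.03). Hand1 had 12 counts in 5 h replicate 1 and 0 counts elsewhere, and was not tested. The part of these markers in the results was not tested. Labelled Snrnp70 RNA rose (log2 0.91 ± 0.09, and 0.06 with mitochondrial scaling), which does not check the degron, since that acts on the protein.

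In mammals, many mRNAs of the translation machinery start with a C and a run of pyrimidines, the TOP motif, through which mTOR signalling controls their translation. RefSeq promoter sequences (GRCm38.p6) were found for 51 of the 65 tested members. The search was for a C followed by at least 4 bases of C or T, read in the direction of transcription. It had to begin within 3 bases of the annotated start. How exact the annotated starts are was not checked, and a stretch farther away would be missed. Such a stretch was present in 9 of the 51 members (17.6%), against 15.1% of 11006 tested genes with a sequence. The share is near that of all genes and no result is read from it. These 4 are shown for how the motif sits in members of different complexes, from 15 bases before the start to 15 from it on. Capitals mark the stretch found by the search, which could not begin more than 3 bases before the start. In each of the 4 the bases just before the capitals are also C or T.
Eef1a1, chr9:78481710-78481739, minus strand: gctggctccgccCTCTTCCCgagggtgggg
Eif3f, chr7:108934400-108934429, plus strand: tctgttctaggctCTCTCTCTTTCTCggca
Eif2b5, chr16:20498802-20498831, plus strand: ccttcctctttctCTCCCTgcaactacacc
Eif2s3x, chrX:94212637-94212666, minus strand: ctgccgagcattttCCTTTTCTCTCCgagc

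Eef1a1, Eif3f and Eif2b5 rose, and Eif2s3x did not pass. Of all members with such a stretch 7 rose and 1 fell, Eif2ak4 (log2 -0.78), which is not shown. Among the 51 members with a sequence 30 rose and 6 fell. A further letter pattern, CCGGAAGT, the core bound by ETS family factors, was searched on both strands of the 300-base windows from 250 bases before the start to 50 after. It was found in 9 of the 51 members (17.6%), of which 6 rose and 3 did not pass, against 8.78% of the tested genes with a sequence. The pattern was chosen after the values were seen, a link to the change was not tested, and a match of letters is no evidence of a bound site. Those that did not pass, Eif2b2 (log2 0.49), Eif4e2 (-0.26) and Eif5a2 (-0.23), are not shown. The 3 stretches below were picked from members that rose, in 3 different complexes. They carry the pattern, or its complement ACTTCCGG, in capitals.
Eef1b2, chr1:63176821-63176850, plus strand: ctgcagttccgCCGGAAGTagccgaggcct
Eif2b4, chr5:31193120-31193149, minus strand: cccagtgcacgCCGGAAGTtgtagtccgct
Eif3d, chr15:77970877-77970906, minus strand: agctgtgacacACTTCCGGttgtgtctcac

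Genes listed by symbol as factors of scanning, start codon choice and subunit joining were among the most uniformly higher. Eif1ad is in this list by its name alone. Of 8 members 6 rose and 2 did not pass, with a median log2 fold change of 0.74. The counts of this and the following complexes stand beside 22.0% rises and 21.2% falls among all tested genes. Eif6, which keeps the large ribosomal subunit from joining too early, had 48.0 and 39.2 CPM at 0 h and 112 and 98.5 CPM at 5 h. Both 5 h values were well above both 0 h values, and the log2 fold change was 1.26 ± 0.13 (SE; edgeR adjusted p = 6.16e-05). Eif6 lies on chromosome 2 from 155819837 to 155826925 (mm10). Eif1, which guards start codon choice, went from 281 and 260 CPM to 511 and 533 CPM, with no overlap (log2 0.95 ± 0.09). Eif5, the GTPase-activating protein of eIF2, went from 390 and 462 CPM to 617 and 701 CPM, and Eif5b, the joining GTPase, from 266 and 276 CPM to 441 and 482 CPM. Their log2 fold changes were 0.63 ± 0.11 and 0.77 ± 0.09. Eif1ad (0.71 ± 0.10) and Eif1b, a close copy of Eif1 (0.82 ± 0.20), rose too, and the latter lost its call without 0 h replicate 2 (adjusted p = 0.0636).

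The 2 genes for eIF1A, which binds the small subunit beside eIF1, stood apart from that list. Eif1a had 476 and 471 CPM at 0 h and 431 and 500 CPM at 5 h, so the groups overlapped (log2 -0.03 ± 0.09). Eif1ax had 89.0 and 78.0 CPM at 0 h and 75.8 and 73.9 CPM at 5 h, and its log2 fold change of -0.16 ± 0.11 did not pass (edgeR adjusted p = 0.281). Reads of the near-identical copies Eif1a and Eif1ax, and of Eif1 and Eif1b, may have been split by the counting.

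Of the 3 subunits of eIF2 itself, only Eif2s2 passed the main test. Eif2s2, the beta subunit, rose from 228 and 218 CPM to 271 and 314 CPM, a log2 fold change of 0.39 ± 0.10 (edgeR adjusted p = 0.00856). That call was lost without 0 h replicate 2 (adjusted p = 0.105). Eif2s1, the alpha subunit that the eIF2 kinases phosphorylate, had 171 and 204 CPM at 0 h and 142 and 179 CPM at 5 h, with overlapping groups. Its log2 fold change of -0.22 ± 0.13 did not pass, but it did once the replicate number was a block (adjusted p = 0.0411) and without 5 h replicate 2 (-0.38, adjusted p = 0.0183). Eif2s3x, the gamma subunit, had 261 and 287 CPM at 0 h and 277 and 311 CPM at 5 h, overlapping as well. The Y-linked copy Eif2s3y was at 0 counts in all 4 libraries, where 3 counts would correspond to 0.154 to 0.382 CPM.

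The 2 genes in this list for proteins that can bring tRNA to the ribosome apart from eIF2 differed from each other. Eif2d, which also acts in ribosome recycling, had 200.5 and 192 CPM at 0 h and 112 and 108 CPM at 5 h. It fell by 0.83 on the log2 scale, or 1.78-fold (SE 0.09; edgeR adjusted p = 8.84e-05). Eif2a, by contrast, had 96.9 and 99.3 CPM at 0 h and 94.0 and 122 CPM at 5 h, with an overlap (log2 0.13 ± 0.13). It passed without 5 h replicate 1 (0.31, adjusted p = 0.0133) and was at -0.04 without 5 h replicate 2. In all, of the 5 tested members of this list, 1 rose, 1 fell and 3 did not pass. These shares of 20% each are near the 22.0% and 21.2% of all tested genes.

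The 5 subunits of eIF2B, the exchange factor that reloads eIF2 with GTP, did not move as 1 block. Eif2b5, the catalytic subunit, rose from 58.7 and 58.9 CPM to 96.5 and 94.5 CPM (log2 0.70 ± 0.11; edgeR adjusted p = 0.000480). Eif2b4 rose from 25.3 and 18.7 CPM to 38.3 and 37.6 CPM (0.77 ± 0.17), a call lost without 0 h replicate 2 (adjusted p = 0.0512). In neither gene did the groups overlap. Eif2b2, which with Eif2b4 and Eif2b1 forms the regulatory part, had a log2 value of 0.49 ± 0.19 that did not pass (adjusted p = 0.0549). It passed upward with counts divided by 4, limma-voom, no count filter and the stricter filter, and without replicate 2 of either group, at adjusted p from 0.0102 to 0.0335. Without replicate 1 of the 0 h or the 5 h group its adjusted p was 0.424 or 0.147, and with DESeq2 0.114. Eif2b1 had 52.9 and 55.9 CPM at 0 h and 45.0 and 40.4 CPM at 5 h, a log2 value of -0.34 ± 0.13 just outside the threshold (adjusted p = 0.0519). It passed with counts divided by 4, with the stricter count filter and without 5 h replicate 1. Eif2b3, the partner of Eif2b5 in exchange, was at -0.25 ± 0.13, and passed without 5 h replicate 2 (-0.37, adjusted p = 0.0266).

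Of the 4 eIF2 kinases, Eif2ak2 (PKR, activated by double-stranded RNA) and Eif2ak4 (GCN2, activated on amino acid shortage) fell. Eif2ak2 had 53.1 and 47.3 CPM at 0 h and 30.7 and 30.5 CPM at 5 h, with a log2 fold change of -0.72 ± 0.13 (edgeR adjusted p = 0.00163). Eif2ak4 went from 23.1 and 19.2 CPM to 13.9 and 10.7 CPM (log2 -0.78 ± 0.21; adjusted p = 0.0119, and 0.0936 without 0 h replicate 1). Both were below their 0 h range in both 5 h libraries. Eif2ak1 (HRI, sensitive to haem) rose from 55.0 and 52.6 CPM to 69.4 and 68.8 CPM. This call (log2 0.36 ± 0.12; adjusted p = 0.0276) was lost with DESeq2 (adjusted p = 0.0564), when 0 h replicate 1 was left out (0.108) and when 0 h replicate 2 was (0.198). Eif2ak3 (PERK, the endoplasmic reticulum sensor) was at 0.27 ± 0.12 and did not pass, but did without 5 h replicate 2 (0.34, adjusted p = 0.0324).

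eIF3, the large scaffold on the small subunit, had the most tested members. Of 14 genes 10 rose and 4 did not pass, with a median log2 fold change of 0.51 and a range from 0.04 to 1.13. With library totals 7 rose, and the values of Eif3a, Eif3h and Eif3k were below 0. Eif3d, a subunit with cap-binding activity, went from 121 and 107 CPM to 264 and 237 CPM. Its log2 fold change was 1.13 ± 0.10 (edgeR adjusted p = 3.29e-05). The pattern ACTTCCGG printed above lies upstream of its start, and a link between the pattern and the rise was not tested. Eif3d spans 77958998 to 77970824 on chromosome 15.

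The subunits Eif3a, Eif3b and Eif3c gave 3 different values. Eif3c rose from 181 and 186 CPM to 309 and 288 CPM (log2 0.70 ± 0.09). Eif3b rose less, from 206 and 220 CPM to 283 and 263 CPM (0.36 ± 0.09; edgeR adjusted p = 0.00877), and lost its call without 0 h replicate 1 or 2 (adjusted p = 0.117 and 0.0612). Eif3a, the backbone subunit, had 584 and 597 CPM at 0 h and 595 and 677 CPM at 5 h, which overlap. Its value of 0.11 ± 0.09 did not pass, but did without 5 h replicate 1 (0.20, adjusted p = 0.0383). The WD-repeat and RNA-binding partners Eif3i and Eif3g, which bind Eif3b, rose by 0.75 ± 0.12 and 0.72 ± 0.12.

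Among the remaining subunits, Eif3l rose from 202 and 191 CPM to 307 and 282 CPM (log2 0.58 ± 0.09). Eif3e rose from 166 and 168 CPM to 223 and 287 CPM (0.61 ± 0.12), with a wider spread at 5 h than at 0 h. Eif3f, whose pyrimidine-rich start is printed above, had a value of 0.61 ± 0.12, and Eif3m of 0.44 ± 0.12. Eif3h had 65.4 and 58.2 CPM at 0 h and 62.7 and 64.6 CPM at 5 h, with the 5 h values inside the 0 h range (0.04 ± 0.12). Eif3k (0.25 ± 0.13) did not pass, but did without 5 h replicate 2 (0.39, adjusted p = 0.0240). The copies Eif3j1 (0.43 ± 0.13, rose) and Eif3j2 (0.34 ± 0.13, adjusted p = 0.0548) may share reads. Eif3j2 passed with counts divided by 4, no count filter, the stricter filter and the replicate block, and without 5 h replicate 1 (0.50, adjusted p = 0.000863). The call of Eif3j1 was lost without 0 h replicate 1 (adjusted p = 0.134) and, at 0.0632, without 5 h replicate 2.

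Genes listed by symbol under the cap-binding complex eIF4F and its RNA helicase rose in 8 of 10 tested cases, with a median of 0.53. Eif4a3, Eif4g2 and Eif4e2 are in this list by name alone. Eif4e, which binds the cap, went from 138 and 162 CPM to 233 and 260 CPM (log2 0.72 ± 0.11; edgeR adjusted p = 0.000445). The scaffold Eif4g1 went from 469 and 460 CPM to 714 and 688 CPM (0.59 ± 0.08), and its relative Eif4g3, on a span of 215308 bases, rose by 0.51 ± 0.10. Eif4g2, a scaffold that lacks the eIF4E-binding part, rose from 983 and 1023 CPM to 1167 and 1315 CPM (0.31 ± 0.09). It lost its call without 0 h replicate 1 or 2 (adjusted p = 0.181 and 0.126). None of these 4 genes had overlapping groups.

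The helicase paralogs Eif4a1 and Eif4a2 both rose. Eif4a1 had 997 and 990 CPM at 0 h and 1350 and 1385 CPM at 5 h (log2 0.46 ± 0.08). Eif4a2 had 979 and 1047 CPM at 0 h and 1820 and 2260 CPM at 5 h, a log2 fold change of 1.01 ± 0.11 (edgeR adjusted p = 6.27e-05). The third relative, Eif4a3, is a core protein of the exon junction complex rather than of initiation and rose by 0.56 ± 0.10. Of the helicase cofactors, Eif4h rose from 239 and 213 CPM to 422 and 398 CPM (0.86 ± 0.09). Eif4b had 553 and 536 CPM at 0 h and 544 and 561 CPM at 5 h, with overlapping groups (0.02 ± 0.08). Eif4e2, a cap-binding repressor, had 121 and 123 CPM at 0 h and 98.7 and 105 CPM at 5 h, a log2 value of -0.26 ± 0.10 (adjusted p = 0.0544), and passed downward with limma-voom (adjusted p = 0.0450), with the replicate block (0.0327), with counts divided by 4, with the stricter filter and without 5 h replicate 2.

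The proteins that hold eIF4E gave the lowest value of all tested members. Eif4ebp2, which blocks eIF4E until mTOR phosphorylates it, had 129 and 123 CPM at 0 h and 44.2 and 41.2 CPM at 5 h. It fell 2.94-fold, with a log2 fold change of -1.56 ± 0.11 (edgeR adjusted p = 1.01e-05), and stayed between -1.61 and -1.49 when any 1 library was left out. Eif4ebp2 spans 61428491 to 61452790 on chromosome 10. Its paralog Eif4ebp1 had 54.2 and 43.3 CPM at 0 h and 57.0 and 47.0 CPM at 5 h, and the groups overlapped (0.09 ± 0.15). Eif4ebp3 had 39 and 6 counts at 0 h and 13 and 0 counts at 5 h, too few for a firm value (-1.53 ± 1.08; without 5 h replicate 1 no count was left at 5 h, and it then passed). Eif4enif1, which carries eIF4E into the nucleus and to P-bodies, rose from 124 and 116 CPM to 180 and 208 CPM (0.69 ± 0.10).

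**Figure D2:**
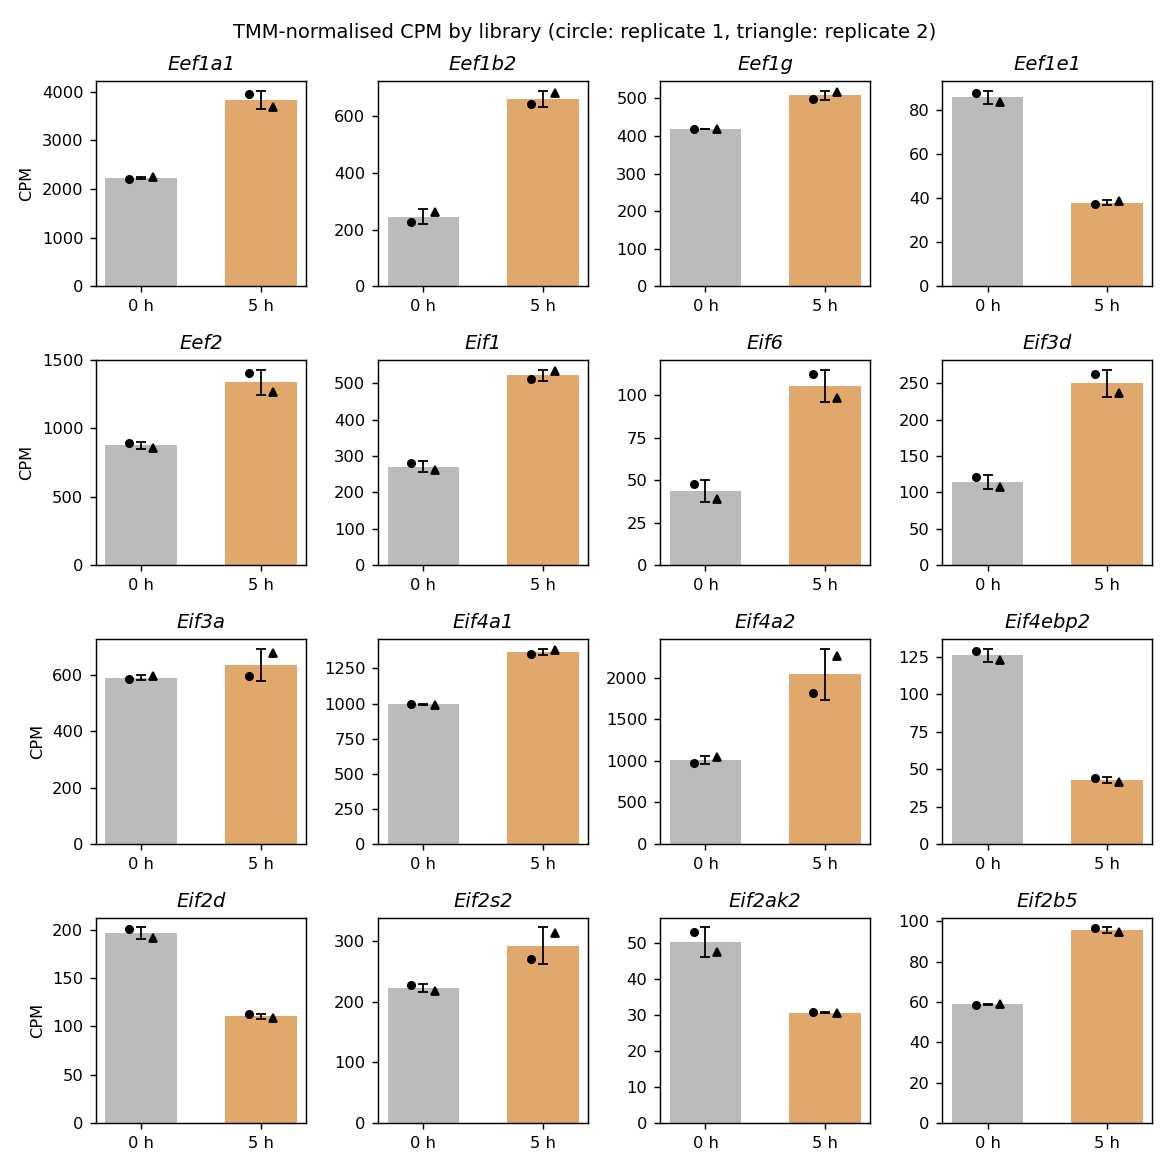
TMM-normalised CPM of 16 members in each library at 0 h (grey) and 5 h (orange); bars are means with SD (n = 2), circles replicate 1 and triangles replicate 2, and each panel has its own axis from 0. Eef1e1, Eif4ebp2, Eif2d and Eif2ak2 are lower at 5 h in both libraries, Eif3a overlaps, and the other 11 are higher in both.

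Of the 6 genes listed under eEF1, 4 subunit genes rose, 1 gene outside the complex (Eef1e1) fell and 1 was not tested. Eef1b2, the beta subunit that exchanges the nucleotide on eEF1A, had 226 and 263 CPM at 0 h and 642 and 682 CPM at 5 h. It rose 2.71-fold (log2 1.44 ± 0.10; edgeR adjusted p = 8.33e-06), the highest value among the tested members. It was also the only member that rose with mitochondrial scaling (0.59, adjusted p = 0.00613). Eef1b2 lies on chromosome 1 from 63176831 to 63180486. Eef1a1, the main tRNA carrier, went from 2217 and 2239 CPM to 3964 and 3694 CPM (0.78 ± 0.08), with many pseudogene copies that could share its reads. It was at -0.06 with mitochondrial scaling. Eef1d, a further exchange subunit, rose from 139 and 128 CPM to 195 and 182 CPM (0.50 ± 0.10). Eef1g, the structural gamma subunit, rose only from 418 and 418 CPM to 499 and 516 CPM (0.28 ± 0.08; adjusted p = 0.0184). Without 0 h replicate 2 neither of these 2 passed (adjusted p = 0.0523 and 0.193), which left 2 rises in the list, and without 0 h replicate 1 Eef1g did not pass either (0.161).

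Eef1e1 is named with eEF1 but encodes AIMP3, a scaffold of the multi-tRNA synthetase complex. It had 87.7 and 83.6 CPM at 0 h and 37.1 and 38.8 CPM at 5 h. The fall was 2.26-fold, with a log2 fold change of -1.18 ± 0.12 (edgeR adjusted p = 4.89e-05) and both 5 h libraries below both 0 h libraries. Eef1e1 spans 38645691 to 38659028 on chromosome 13. The tissue-restricted paralog Eef1a2 had 11 and 0 counts at 0 h and 12 and 5 counts at 5 h and was not tested.

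Eef2, the translocase, rose from 895 and 860 CPM to 1401 and 1269 CPM (log2 0.61 ± 0.09; edgeR adjusted p = 0.000304). Its inhibitory kinase Eef2k had 11.2 and 11.8 CPM at 0 h and 8.91 and 5.08 CPM at 5 h, and the value of -0.69 ± 0.29 did not pass (adjusted p = 0.0814). It passed with the stricter filter (adjusted p = 0.0471) and without 5 h replicate 1 (-1.17, adjusted p = 0.00554), so the 2 libraries at 5 h differ in how low they are. Eif5a, the hypusine-carrying factor that helps ribosomes over poorly reacting peptide bonds, rose from 266 and 250 CPM to 496 and 434 CPM (0.85 ± 0.10). Its paralog Eif5a2 had 24.9 and 25.4 CPM at 0 h and 23.3 and 19.5 CPM at 5 h (-0.23 ± 0.17), and did not pass.

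The methyltransferases that modify elongation factors had low levels, apart from Eef1aknmt, which modifies the N-terminus and a lysine of eEF1A. Eef1aknmt rose from 140 and 139 CPM to 214 and 205 CPM (log2 0.59 ± 0.09; edgeR adjusted p = 0.000547). Eef2kmt, which methylates eEF2, had 10.4 and 13.6 CPM at 0 h and 5.04 and 5.30 CPM at 5 h (-1.20 ± 0.27; adjusted p = 0.00471). Eef1akmt1, a lysine methyltransferase of eEF1A, had 8.75 and 6.62 CPM at 0 h and 3.73 and 3.03 CPM at 5 h (-1.19 ± 0.32; adjusted p = 0.0130). The latter call was lost with DESeq2 (adjusted p = 0.0513) and without 0 h replicate 1 (adjusted p = 0.124). Eef1akmt2, Eef1akmt3 and Eef1akmt4 did not pass (0.23 ± 0.22, -0.10 ± 0.42 and -0.39 ± 0.30), and 3 of the 6 genes of this list were thus not called.

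The remaining members without a test were all near the limit of counting. Eif4e1b, an oocyte form of eIF4E, was at 0 counts in the 4 libraries. Eif4e3 had at most 6 counts in any library, and the exon junction helicase copies Eif4a3l1 and Eif4a3l2 at most 9. Eif2c5 fits the symbol rule but is an old name of an Argonaute-related locus, and it had 4 counts in 1 library.

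Ratios of 2 members' counts within a library do not change with the scaling, so they show which genes moved apart from each other. The 10 pairs were chosen after the values were seen, by role or for their difference, and are given as a description with no test. With 2 libraries a group the smallest 2-sided exact permutation p would be 0.333. The count ratio of Eif4ebp2 to its target Eif4e was 0.933 and 0.756 at 0 h and 0.190 and 0.158 at 5 h, 4.85-fold lower. That of Eif4a2 to Eif4a1 went from 0.982 and 1.06 to 1.35 and 1.63. The ratio of Eef1b2 to its partner Eef1g rose 2.23-fold, from 0.540 and 0.631 to 1.29 and 1.32. Eif3d to Eif3h, the extremes of eIF3, went from 1.85 and 1.84 to 4.20 and 3.67. Eif2d to Eif2s2 went from 0.881 and 0.881 to 0.414 and 0.344. For the inhibitory kinase Eef2k over Eef2 the ratio was 0.0125 and 0.0138 at 0 h and 0.00636 and 0.00400 at 5 h. Ratios between paralogs changed too, from 1.69 and 1.81 to 0.842 and 0.939 for Eif1a over Eif1, and from 0.0933 and 0.102 to 0.0469 and 0.0448 for Eif5a2 over Eif5a.

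**Figure D3:**
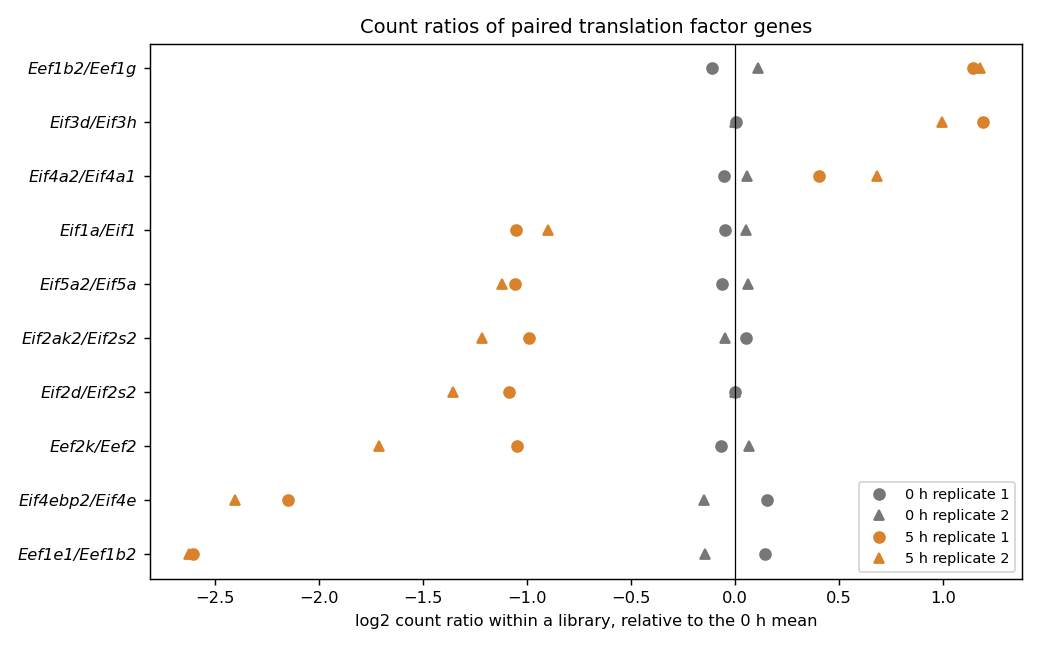
Log2 count ratio of 10 pairs of members within each library, relative to the mean of the 0 h libraries; grey symbols are 0 h and orange 5 h, circles replicate 1 and triangles replicate 2. The 5 h symbols of every pair lie outside the 0 h range, farthest for Eef1e1/Eef1b2 (log2 change -2.61) and Eif4ebp2/Eif4e (-2.28).

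Added over all 72 members, counts made up 1.58% and 1.59% of the 0 h libraries and 1.92% and 1.91% of the 5 h libraries. Groups differed in how far they lay from the median gene. With mitochondrial scaling the medians were -0.11 for the scanning factors, -0.33 for eIF3, -0.31 for eIF4F and -0.34 for eEF1, against -0.86 for all tested genes. The medians of the eIF2 kinases (-1.06), the eIF4E-binding genes (-1.51) and the methyltransferases (-1.10) were below that of all genes on this scale, as on the TMM scale (-0.22, -0.72 and -0.25 against -0.02). The eIF4E-binding median rests on the sparse Eif4ebp3: without it the middle gene is Eif4ebp1, at -0.74 and 0.09, above the all-gene median on both scales.

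**Figure D4:**
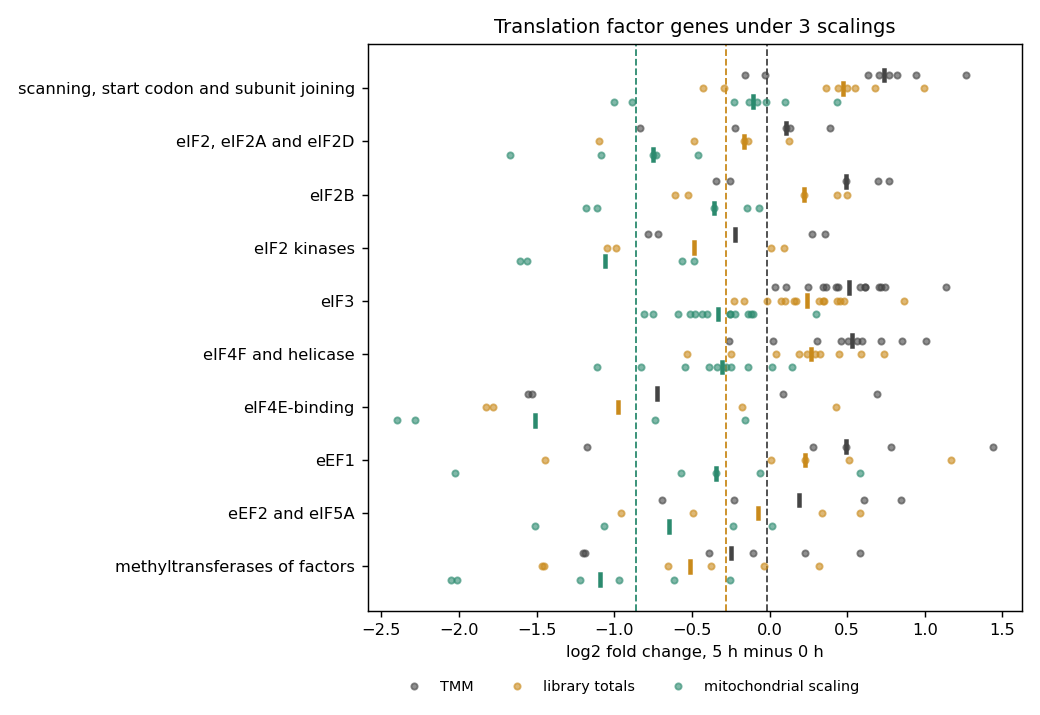
Log2 fold change of each tested member by complex under TMM (grey), library totals (ochre) and mitochondrial scaling (green); dots are genes, short thick lines the median of a group and dashed lines the median of all tested genes (-0.02, -0.28 and -0.86). The scalings shift all genes nearly alike, so the order of the groups is kept while most dots of eIF3 and eIF4F cross 0.

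Gene span, the distance from start to end in RefSeq, moved with the change. The 36 members that rose had a median span of 11.8 kb and the 7 that fell of 24.3 kb, against 19.3 kb over 15033 tested genes with a span. Spearman's rho between span and log2 fold change was -0.401 across the 65 tested members and -0.297 across all these genes, which share the libraries and are not independent, so no p is given. The 8 tested members under 5 kb had a median of 0.75, against 0.49 for all genes of that span. For spans of 5 to 20 kb the medians were 0.50 (31 members) and -0.01, for 20 to 50 kb 0.12 (18 members) and -0.21, and over 50 kb 0.16 (8 members) and -0.29. In each class the members thus had the higher median. Of the 8 members over 50 kb, Eif5b, Eif4g3 and Eif2ak1 rose and Eif2ak4 fell, while 13.0% of all genes of that class rose and 33.2% fell. Exon length and intron number were not analysed here.

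**Figure D5:**
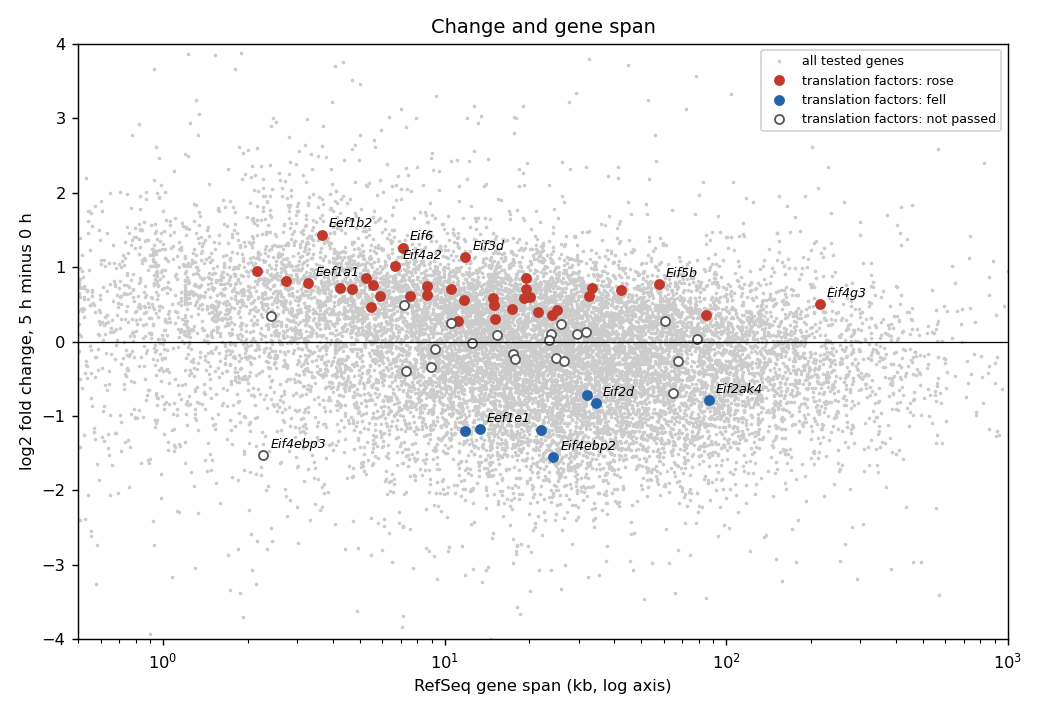
Log2 fold change (5 h minus 0 h) against RefSeq gene span in kb (log axis) for all tested genes (light grey) and the tested translation factor genes (red rose, blue fell, open did not pass); 529 of 15033 genes lie outside the plotted range. Members under 5 kb are mostly red, the 7 blue points lie above 10 kb, and Eif4g3 at 215 kb is still above 0.

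Introns of several members carry small nucleolar RNAs, which guide modification of ribosomal RNA. RefSeq places 16 snoRNA genes inside 9 of the tested members, and 7 of those 9 rose (Eif3a and Eif2ak3 did not pass), beside 29 of the other 56 tested members. The difference was not tested. Of these snoRNA genes 5 passed the count filter and all 5 rose, where 22.0% of all tested genes did. Snora41 in Eef1b2 had 168 and 76 counts at 0 h and 617 and 404 counts at 5 h, a log2 fold change of 2.25 ± 0.17, above the host's 1.44. The values were 2.08 ± 0.40 for Snord37 in Eef2, 2.13 ± 0.51 for Snord66 in Eif4g1, 1.74 ± 0.24 for Gm25835 in Eif4a1 and 1.39 ± 0.40 for Snora19 in Eif3a, each higher than its host's. How reads inside such an intron were shared between snoRNA and host is not known, and the difference between them was not tested.

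Some members overlap a neighbour, and with no strand setting given the reads of the overlap could have been counted for either. There were 15 members that overlap a tested protein-coding gene, and in 2 pairs both genes passed in opposite directions. Eif4enif1 rose while its neighbour Sfi1, a centriole gene, fell by 1.71 on the log2 scale, and Eif3j1 rose while Spg11 fell by 1.24. Eef2kmt and its neighbour Alg1 both fell. Eef1d rose with its neighbour Tigd5 (1.73), and Eif1ad with Banf1 (0.51). Eif2ak2 fell, as did the transcribed pseudogene Gm6548 inside it (-1.08). How far shared reads enter the calls of these members was not tested. Eef1akmt4 lies inside the read-through gene Eef1akmt4-ece2, which has no row of its own in the count table.

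Other genes of cytosolic translation were taken from lists drawn up with earlier results known. The counts of these and the following lists stand beside 22.0% rises and 21.2% falls among all tested genes. Of 10 termination and recycling genes 5 rose and 5 did not pass, with a median of 0.31. Denr, which removes tRNA from post-termination subunits, rose from 75.4 and 82.5 CPM to 166 and 169 CPM (1.09 ± 0.10), and Abcf1, which helps eIF2 bind ribosomes, from 107 and 88.4 CPM to 151 and 156 CPM (0.65 ± 0.11). The count of rises was 3 without either 0 h replicate. Both 5 h values of each gene lay above both 0 h values. Mcts1, the partner of Denr, was at -0.53 ± 0.24 and did not pass. Of 9 cap and poly(A) partners 3 rose and 3 fell. Pabpc4, which binds the poly(A) tail, rose from 160 and 163 CPM to 305 and 293 CPM (0.89 ± 0.09), and Pabpc1 from 953 and 993 CPM to 1429 and 1546 CPM (0.61 ± 0.08). The helicase gene Ddx3x (-0.38 ± 0.09) and the regulators Paip1 (-0.48 ± 0.15) and Paip2b (-0.60 ± 0.11) fell. Leaving out 0 h replicate 2 left 1 fall in this list, and DESeq2 gave 2.

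Of 9 enzymes and partners that modify eIF5A and eEF2, 3 rose and 3 fell. Dhps and Dohh, which make hypusine on eIF5A, rose by 0.78 ± 0.15 and 0.63 ± 0.17. Of the 7 genes of diphthamide synthesis on eEF2, Dph1 (-1.40 ± 0.26), Dph5 (-1.20 ± 0.19) and Dph6 (-0.62 ± 0.18) fell, Dph2 rose (0.68 ± 0.15), and Dph3, Dph7 and Dnajc24 did not pass. Dph1 went from 14.7 and 20.9 CPM to 7.25 and 5.94 CPM, and Dph5 from 25.8 and 27.4 CPM to 12.7 and 10.2 CPM, without overlap.

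Of 11 genes of mTOR and MNK signalling 2 rose and 2 fell (18.2% each), near the 22.0% and 21.2% of all tested genes. Mknk2, a kinase of eIF4E, rose from 43.1 and 30.8 CPM to 93.0 and 72.2 CPM (1.14 ± 0.18), while Mtor fell (-0.86 ± 0.15). Tsc2, which restrains mTOR, fell from 134 and 135 CPM to 92.0 and 82.7 CPM (-0.62 ± 0.10). Mlst8, a subunit of the mTOR complexes, also rose (0.38 ± 0.13). With DESeq2, or with 0 h replicate 1 or 2 left out, 1 gene of this list rose. Of 5 genes acting on eIF2 dephosphorylation and GCN2, the phosphatase subunit Ppp1r15a rose from 44.1 and 45.2 CPM to 84.0 and 73.2 CPM (0.82 ± 0.12). Ppp1r15b rose from 616 and 629 CPM to 974 and 998 CPM (0.66 ± 0.08). Nck1, an adaptor, also rose (0.54 ± 0.12), and the GCN2 inhibitor Impact fell (-0.71 ± 0.12). Gcn1, the activator of GCN2, was at -0.27 ± 0.12 and did not pass.

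Factors of mitochondrial translation, which serve another ribosome, gave 4 rises and 4 falls among 10 tested genes, with a median of -0.16. Mtrf1, a release factor, fell from 29.6 and 30.0 CPM to 10.2 and 9.73 CPM (-1.58 ± 0.18), and the initiation factor Mtif2 from 43.7 and 57.5 CPM to 19.5 and 20.5 CPM (-1.33 ± 0.17). The elongation factor genes Tufm (0.40 ± 0.11) and Tsfm (0.53 ± 0.16) rose, while Gfm1 (-0.35 ± 0.13) and Gfm2 (-0.96 ± 0.13) fell. Without 0 h replicate 1 the rises were 1 and without 0 h replicate 2 they were 2.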

How the data were processed

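Per the submitters' processing notes, the tools were DESeq2 1.42.0, HISAT2 2.2.1 and StringTie 2.2.1, on mm10; their roles are not stated. The authors deposited whole-number gene values, taken here as estimated counts because their rows pair an Ensembl ID with a symbol as StringTie exports do; rounding changed no value. Which tool made them is not stated. Annotation and strand setting: not given in the sources used here. Every row names a gene. Of the 55401 genes, filterByExpr kept 17344. They were fitted with TMM in edgeR 4.0.16 (robust quasi-likelihood test without a replicate block) for 5 h minus 0 h; calls need an adjusted p (Benjamini-Hochberg, over all tested genes) under 0.05. CPM are TMM-normalised, and SE is the log2 fold change over the root of F. The procedure was also run on simulated data in which 200 genes were changed, as many up as down. With so few changed genes it could not check the scaling, and nothing is read from it. Alternatives were library totals, scaling to mitochondrially encoded genes, DESeq2 1.42.0, limma-voom (limma 3.58.1), no count filter, a group mean of at least 50 counts in either group, counts divided by 4, a replicate block, and each library left out. Genes given in all libraries are, per list, the 3 members with the lowest adjusted p, the strongest of opposite sign, members with a mean of at least 200 CPM, their paralogs and 2 genes per pathway list; others, and the ETS pattern, were chosen after the values were seen. Members and lists were chosen with earlier results of these data known. Spans and promoters came from RefSeq (GRCm38.p6), which held all 72 members by symbol.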

Additional observations from a re-analysis of the deposited data

How the results depend on the processing

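Under DESeq2, limma-voom, no count filter, the stricter filter, counts divided by 4 and the replicate block, the counts of members and of all genes that rose or fell stayed within 1.5 times the main ones. Scaling moved them. Over all genes, 2297 rose with library totals, and 396 rose and 8872 fell with mitochondrial scaling. Among members, 16 fell with library totals, and 1 rose and 30 fell with mitochondrial scaling. Library totals gave, as rises and falls where these moved, 2 falls for scanning factors, 0 and 2 for eIF2, 2 falls for eIF2B, 0 rises for the kinases, 5 and 2 for eIF4F, 2 rises for eEF1, 2 falls for eEF2 and eIF5A, 2 and 1 for termination, 1 rise for hypusine and diphthamide, 1 and 6 for mTOR, 2 falls for eIF2 dephosphorylation and 0 rises for mitochondrial factors. Mitochondrial scaling gave 0 rises in every list but eEF1, which had 1, and falls of 2 (scanning), 5 (eIF2), 2 (eIF2B), 5 (eIF3), 4 (eIF4F), 2 (eIF4E-binding), 2 (eEF1), 2 (eEF2 and eIF5A), 6 (termination), 6 (cap and poly(A)), 9 (mTOR) and 2 (eIF2 dephosphorylation). DESeq2 gave 0 rises for the kinases, 1 fall for methyltransferases and 1 rise for mTOR. Counts divided by 4 gave 1 fall each for eIF2B, eIF4F and termination and 2 for eIF2 dephosphorylation; limma-voom gave 1 each for eIF4F and termination; the stricter filter gave 1 each for eIF2B, eIF4F and the group of eEF2 and eIF5A, and 2 for eIF2 dephosphorylation.

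With the replicate number as a block, eIF2 and eIF2 dephosphorylation had 2 falls each and eIF4F 1; among members, Eif2s1, Eif3j2 and Eif4e2 then passed. The deviations of same-numbered libraries correlated at 0.0505 and the labels give no pairing, so the numbers were not taken as pairs.

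Leaving out 1 library at a time, 2721 to 3765 genes rose and 2609 to 3834 fell; of the members 29 to 39 rose and 5 to 10 fell. Rises and falls ranged over 5 to 6 and 0 to 0 for scanning, 0 to 2 and 1 to 2 for eIF2, 2 to 3 and 0 to 1 for eIF2B, 0 to 2 and 1 to 2 for the kinases, 7 to 12 and 0 to 0 for eIF3, 7 to 8 and 0 to 1 for eIF4F, 1 to 1 and 1 to 2 for eIF4E-binding, 2 to 4 and 1 to 1 for eEF1, 2 to 2 and 0 to 1 for eEF2 and eIF5A, and 1 to 1 and 1 to 2 for methyltransferases. For the pathway lists they ranged over 3 to 7 and 0 to 1 (termination), 2 to 3 and 1 to 3 (cap and poly(A)), 2 to 3 and 2 to 4 (hypusine and diphthamide), 1 to 2 and 2 to 3 (mTOR), 3 to 3 and 1 to 2 (eIF2 dephosphorylation) and 1 to 4 and 3 to 4 (mitochondrial).

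Signs turned with library totals for Eef1akmt2 (-0.04), Eif2a (-0.14), Eif2s3x (-0.16), Eif3a (-0.16), Eif3h (-0.23), Eif3k (-0.02), Eif4b (-0.25) and Eif4ebp1 (-0.18). With mitochondrial scaling the values were Abcf1 -0.20, Eef1a1 -0.06, Eef1akmt2 -0.61, Eef1aknmt -0.26, Eef1d -0.34, Eef1g -0.57, Eef2 -0.23, Eif1ad -0.13, Eif1b -0.02, Eif2a -0.73, Eif2ak1 -0.48, Eif2ak3 -0.56, Eif2b2 -0.36, Eif2b4 -0.07, Eif2b5 -0.14, Eif2s2 -0.46, Eif2s3x -0.75, Eif3a -0.75, Eif3b -0.48, Eif3c -0.14, Eif3e -0.25, Eif3f -0.22, Eif3g -0.12, Eif3h -0.81, Eif3i -0.10, Eif3j1 -0.43, Eif3j2 -0.52, Eif3k -0.59, Eif3l -0.26, Eif3m -0.40, Eif4a1 -0.39, Eif4a3 -0.28, Eif4b -0.83, Eif4e -0.14, Eif4ebp1 -0.74, Eif4enif1 -0.16, Eif4g1 -0.25, Eif4g2 -0.55, Eif4g3 -0.34, Eif5 -0.23, Eif5b -0.08, Pabpc1 -0.24, Ppp1r15a -0.02 and Ppp1r15b -0.19. With 1 library left out, values ranged from -0.50 to 0.25 for Eef1akmt3, from -0.66 to 0.01 for Eef1akmt4, from -0.04 to 0.31 for Eif2a, from -0.04 to 0.14 for Eif3h, from -0.00 to 0.05 for Eif4b, from -0.06 to 0.28 for Eif4ebp1 and from -0.12 to 0.08 for Eif1a. With library totals and mitochondrial scaling the median of all tested genes was lower too, at -0.28 and -0.86 against -0.02. The cause of these downward shifts was not tested. At this depth 7 members had too few counts for a test, and Eif4ebp3 had at most 39.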
